A study of Homo sapiens with 24 samples.

Results

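The EGR, FOS and JUN immediate early genes were followed across every group of a study of the lactate and pyruvate transporter MCT1 in breast cancer cells. The 10 genes were listed by name: EGR1, EGR2, EGR3, FOS, FOSB, FOSL1, FOSL2, JUN, JUNB and IER3. They were chosen by measured values of these arrays: the EGR1 signal differed in opposite directions with MCT1 shRNA in SUM149PT and with the MCT1 inhibitor AZD3965 in HS578T. In both of those comparisons values are therefore descriptions, given without a p-value. Of the 10 genes, 9 had a probe set with their symbol alone in the annotation used, and EGR2 was not analysed here. The 9 genes had 18 of the 54675 probe sets on the array. In a table of 14141 genes bright enough to be tested, 8 were present, and FOSB was too dim.

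Immediate early genes are transcribed within minutes of a growth factor or stress signal, without new protein synthesis, and their transcripts are short-lived. The EGR proteins are zinc finger transcription factors, while FOS proteins bind DNA as dimers with JUN proteins, the complex called AP-1. Signals reach the promoters largely through the ERK, JNK and p38 kinase cascades, acting on serum response factor with its ELK partners and on CREB and AP-1 proteins. In breast cancer cells FOSL1 and other AP-1 genes are known for their activity in basal-like and mesenchymal-like lines.

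RefSeq promoter windows on GRCh38.p14 were matched by symbol for 7 of the 10 genes, and those of EGR3, FOSL1 and IER3 were not used here. Windows of EGR1, FOS, JUN and JUNB are printed in full. These are the genes with a window whose MCT1 shRNA arrays did not overlap the scramble arrays on the brightest probe set. The MCT1 shRNA arrays were higher for EGR1, FOS and JUN and lower for JUNB. Each sequence holds the 250 bases before the annotated start, 5′ to 3′ on the gene's strand, and capitals mark the motif matches. The EGR1 window is chr5:138465229-138465478 on the plus strand, FOS is chr14:75278578-75278827 on the plus strand, JUN is chr1:58784048-58784297 on the minus strand and JUNB is chr19:12791236-12791485 on the plus strand.
EGR1: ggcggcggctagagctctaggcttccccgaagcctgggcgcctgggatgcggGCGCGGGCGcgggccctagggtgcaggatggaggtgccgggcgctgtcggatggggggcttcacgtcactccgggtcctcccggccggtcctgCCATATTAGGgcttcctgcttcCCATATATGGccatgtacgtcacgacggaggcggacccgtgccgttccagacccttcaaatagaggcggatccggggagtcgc
FOS: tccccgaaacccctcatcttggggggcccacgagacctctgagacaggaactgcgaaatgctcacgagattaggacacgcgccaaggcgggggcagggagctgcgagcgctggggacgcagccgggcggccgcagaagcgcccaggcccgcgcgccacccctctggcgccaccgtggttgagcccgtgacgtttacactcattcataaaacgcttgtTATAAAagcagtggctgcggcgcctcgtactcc
JUN: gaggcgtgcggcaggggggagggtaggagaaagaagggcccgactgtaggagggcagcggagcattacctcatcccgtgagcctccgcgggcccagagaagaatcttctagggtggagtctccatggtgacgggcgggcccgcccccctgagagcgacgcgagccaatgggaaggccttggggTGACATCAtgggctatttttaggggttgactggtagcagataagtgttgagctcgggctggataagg
JUNB: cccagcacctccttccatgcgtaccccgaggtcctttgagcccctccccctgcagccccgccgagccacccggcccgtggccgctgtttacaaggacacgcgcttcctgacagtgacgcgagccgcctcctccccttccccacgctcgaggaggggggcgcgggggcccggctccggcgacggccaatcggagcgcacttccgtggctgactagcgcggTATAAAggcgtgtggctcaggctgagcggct
The EGR1 window held 2 CArG boxes, the element bound by serum response factor, at 105 to 96 and 83 to 74 bases before the start. It also held 1 match to GCGNGGGCG, the EGR binding motif, at 198 to 190 bases. The JUN window held 1 match to TGACNTCA, a motif of CREB and AP-1 dimers, at 67 to 60 bases. FOS and JUNB each held TATAAA, at 33 to 28 and at 31 to 26 bases. The other windows were those of EGR2, FOSB and FOSL2. One of the EGR2 windows held a CArG box at 71 to 62 bases and FOSB held TATAAA at 30 to 25 bases. The AP-1 motif TGANTCA and the ETS motif CCGGAAGT were also searched, and these letters are not in any of the windows named. Both strands were searched, and a CArG box can itself contain TATAAA. Among 35116 windows of this length, 1.16% held a CArG box, 8.41% GCGNGGGCG, 6.87% TGACNTCA, 6.57% TGANTCA, 3.42% CCGGAAGT and 10.7% TATAAA. A match is a description of the letters only.

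Gene expression was measured on 24 Affymetrix arrays in 8 groups of 3. In the inhibitor experiment (18 arrays), HS578T, SUM149PT and SUM159PT cells, all established human breast cancer lines, received AZD3965 or its vehicle DMSO for 24 hours. In the shRNA experiment (6 arrays), SUM149PT cells infected with lentivirus carrying MCT1 shRNA or a scrambled shRNA were selected in puromycin at 2 µg/ml for 5 days. An order of groups across both experiments therefore cannot be told apart from a difference between the experiments. The question was whether MCT1 takes part in the glycolytic metabolism of such lines. HS578T was grown in DMEM with 10% serum. Both SUM lines were grown in F12 with 10% serum, insulin and hydrocortisone at 10 µg/ml each, and EGF at 10 ng/ml, so a difference between HS578T and a SUM line cannot be told apart from one of medium. The labels used here name no AZD3965 concentration, no clone and no source of the replicates. The p-values therefore measure only the spread between arrays, which may be technical. The level of the targeted gene was not analysed here, so the knockdown was not checked.

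The deposited values are linear MAS5 signals in arbitrary units, with array medians of 49.2 to 67.4. Scramble shRNA array 3 stood apart in RNA quality: for actin, the 3' control signal was 53.8 times the 5' signal, where all others had 1.20 to 2.14, and for GAPDH it was 2.35 times, where all others had 0.798 to 0.948. The shRNA log2 changes of the 8 genes are therefore given also without it. Among 9 epithelial markers, EPCAM, CDH1 and KRT19 had DMSO means of 1.48 to 54.6 units in HS578T and SUM159PT and of 4278 to 14967 in SUM149PT, but KRT18 was bright in all 3 lines (5629 to 15896), KRT8 reached 2949 in SUM159PT, and KRT14 was higher in HS578T (1881) than in SUM149PT (234). Among 7 mesenchymal markers, ZEB1 and SPARC had means of 3763 to 19019 units in HS578T and SUM159PT and of 86.1 and 22.8 in SUM149PT, VIM and FN1 were bright in all 3 lines (9516 to 25529.6), and COL1A2 and COL3A1 were bright in HS578T only (28585 and 29797, against at most 127). Of the listed leukocyte, endothelial and adipocyte markers, PTPRC, CDH5, VWF, KDR, ADIPOQ, PLIN1 and LEP were below the brightness filter (group means of 2.79 to 48.0 units), and CD14, PECAM1, FABP4, ITGAM and CD3E were above it, with highest group means of 442, 338, 168, 93.1 and 75.9 units. Fold changes were computed on log2(signal + 16), which understates the change of dim genes. Errors after ± are SD for signals and SE for log2 changes, with n = 3 arrays per group throughout. The SE comes from the fit to all groups, so a gene or probe set has the same SE for each pair of groups. That SE is not the spread of the arrays compared. For FOSL1 the SE was 0.10, where the SD of log2 values was 0.33 with scramble and 0.015 with MCT1 shRNA. For EGR1 probe set 227404_s_at the SE was 0.28, where these SD were 1.03 and 0.073. In bulk RNA, a change in the share of expressing cells and a change in RNA per cell cannot be told apart.

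Between lines under DMSO, 5 to 7 of the 8 genes passed the test in each pair, where 58.0% to 64.2% of all genes tested did. EGR3 passed in no pair. Under DMSO, JUN and FOSL2 were highest in HS578T, EGR1 in SUM159PT, and FOS, FOSL1, JUNB and IER3 in SUM149PT. On the brightest probe set of each gene, all arrays with MCT1 shRNA lay above those with the scrambled shRNA for EGR1, EGR3, FOS and JUN. They lay below them for FOSL1 and JUNB, and the error was widest for the dim FOS (0.70 ± 0.35). The groups overlapped on EGR1 probe set 227404_s_at and on JUN probe sets 201466_s_at and 213281_at. Among all genes tested, arrays were without overlap and higher in 14.6% and lower in 15.2%. With AZD3965, EGR1 was lower in HS578T, no gene of the family passed the test in the SUM lines, and IER3 arrays lay above their DMSO arrays in every line on the deposited scale.

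**Figure D1:**
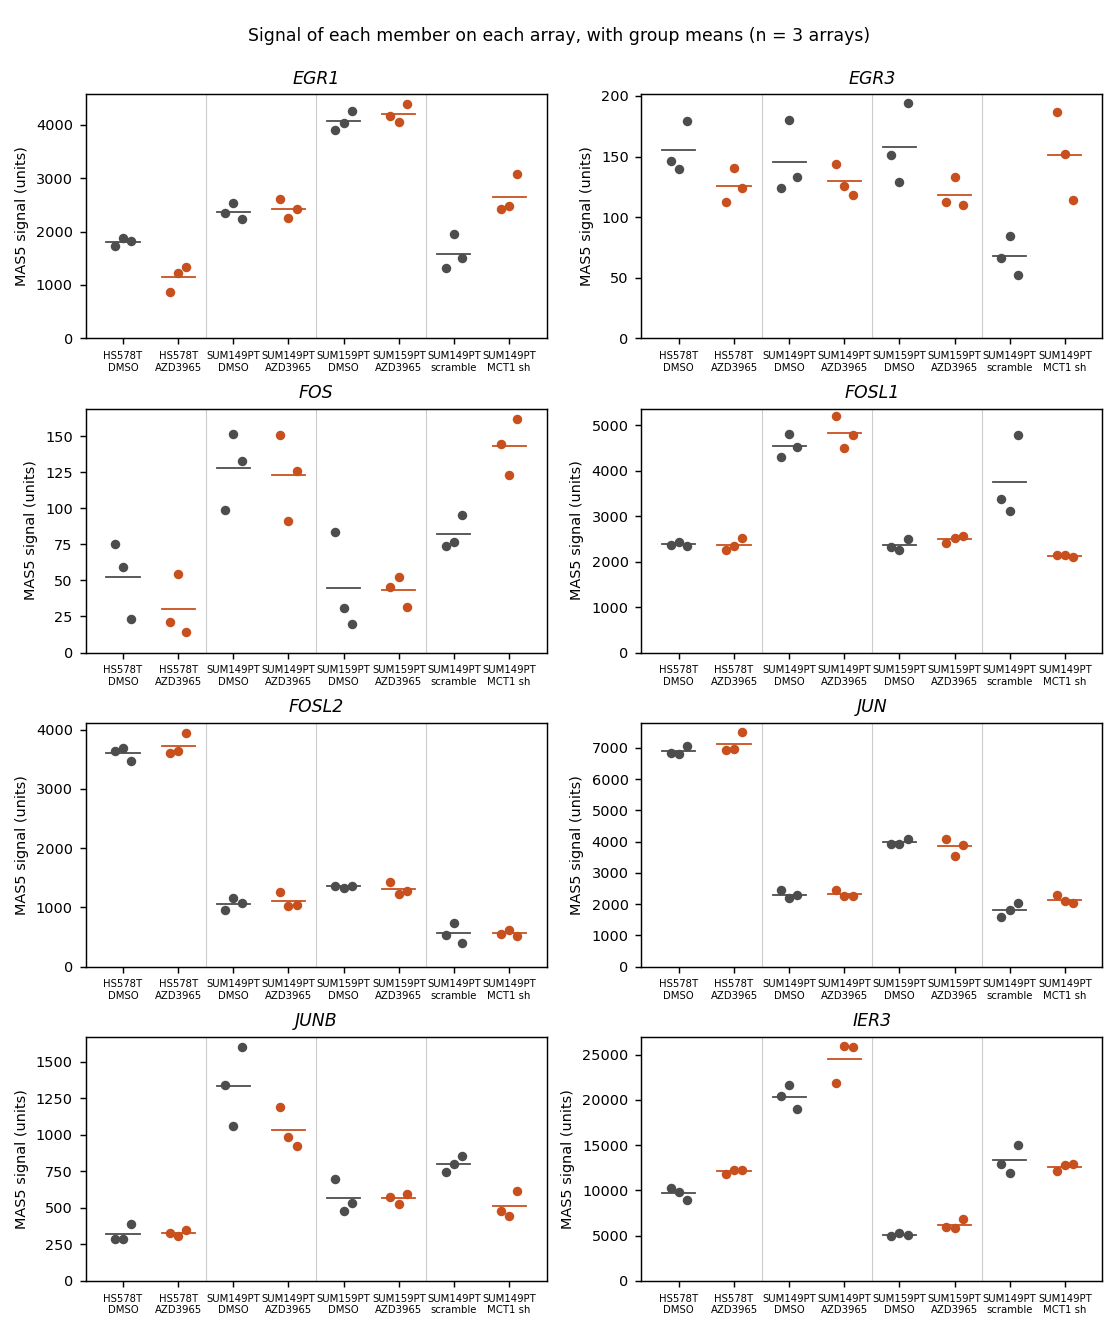
MAS5 signal (units, linear axis from 0) of the brightest probe set of each of the 8 genes on each of the 24 arrays. Dots are arrays (grey control, orange treated) and bars are group means of 3 arrays. JUN and FOSL2 dots are highest in HS578T, EGR1 dots in SUM159PT and, within the inhibitor experiment, IER3 dots in SUM149PT. EGR1 dots with AZD3965 in HS578T lie below their DMSO dots.

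EGR1, a zinc finger activator that also induces its own corepressors, was followed on 3 probe sets. On the brightest, 201694_s_at, the HS578T DMSO arrays gave 1727, 1882 and 1816 units and the AZD3965 arrays 863, 1229 and 1341. All 3 treated arrays lay below all 3 controls, with array 1 lowest. Group means were 1808 ± 77.6 and 1144 ± 250.2 units, a log2 change of -0.68 ± 0.13, and -0.49 without that array. On 227404_s_at the means were 818 ± 56.7 and 386 ± 69.4 units (-1.07 ± 0.28), and on 201693_s_at 422 ± 61.7 and 203 ± 47.4 units (-1.02 ± 0.21), again with no overlap. Among all genes tested, arrays were without overlap and lower in 10.9%, and this comparison chose the gene. The summed level of 9 epithelial markers was 7821 to 8148 units on the DMSO arrays and 8434 to 9333 on the AZD3965 arrays. KRT18 (means of 5629 and 5775 units) and KRT14 (1881 and 2569) made up most of that sum. EPCAM, CDH1 and KRT19 had means of 1.48 to 16.2 units. The sum of 7 mesenchymal markers overlapped, at 133576 to 145115 and 136778 to 141526 units. The part of these markers in the EGR1 values was not tested.

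In the SUM lines the EGR1 values stayed close to their controls. SUM149PT DMSO arrays gave 2341, 2533 and 2231 units and AZD3965 arrays 2605, 2252 and 2423. The groups overlapped, and the log2 change of 0.03 ± 0.13 did not pass (limma adjusted p = 0.929, 95% interval -0.24 to 0.31). SUM159PT DMSO arrays gave 3909, 4029 and 4261 units and AZD3965 arrays 4167, 4052 and 4394. These overlapped too, with a change of 0.05 ± 0.13 (limma adjusted p = 0.962, interval -0.23 to 0.32). The other EGR1 probe sets measured 0.15 and 0.19 in SUM149PT and 0.05 and 0.06 in SUM159PT, none of which passed.

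With the scrambled shRNA, EGR1 gave 1313, 1950 and 1503 units, and with MCT1 shRNA 2416, 2470 and 3076. Every MCT1 shRNA array lay above every scramble array. The means were 1589 ± 327 and 2654 ± 367 units, a log2 change of 0.75 ± 0.13, and 0.72 without scramble array 3. On 201693_s_at the change was 0.88 ± 0.21 (0.57 without that array), with no overlap. The third probe set gave 265, 383 and 1099 units with scramble and 519, 483 and 535 with MCT1 shRNA. Its highest value was that of scramble array 3, so the groups overlapped, and the change was 0.08 ± 0.28 with that array and 0.66 without it. Epithelial markers summed to 51129 to 57399 units with scramble and 66710 to 71586 with MCT1 shRNA. KRT19 (means of 6097 and 12875 units), KRT8 (5725 and 8556) and KRT18 (15747 and 18118) were higher with MCT1 shRNA. EPCAM stayed close (12149 and 12414), and KRT14 was slightly lower (111 and 102). The log2 change of KRT8 was 0.64, and 0.33 without scramble array 3. The 7 mesenchymal markers summed to 20688 to 21574 and 18480 to 23723. The part of these markers in the shRNA values of EGR1 and the other genes was not tested.

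**Figure D2:**
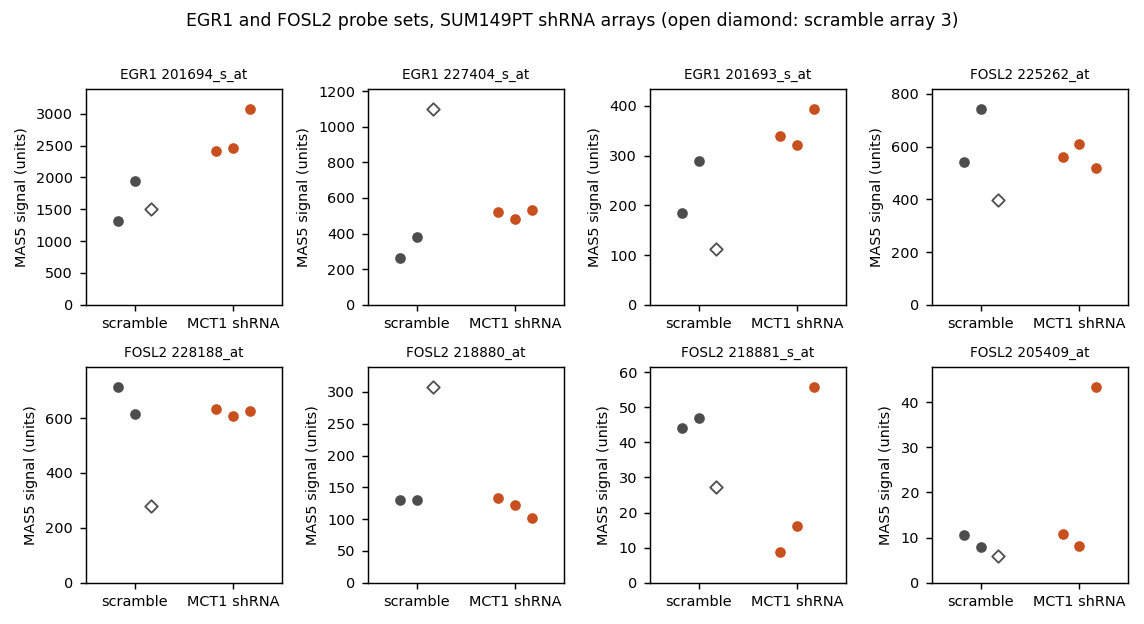
MAS5 signal (units, linear axes from 0) of the EGR1 and FOSL2 probe sets on the 6 SUM149PT shRNA arrays, with scramble in grey and MCT1 shRNA in orange. Scramble array 3, the open diamond, is the highest array on EGR1 227404_s_at (1099 units) and FOSL2 218880_at (308 units) and the lowest on FOSL2 228188_at (279.8 units).

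Between lines under DMSO, EGR1 was highest in SUM159PT. It was higher there than in HS578T by 1.16 ± 0.13 on the log2 scale (limma adjusted p = 7.01e-08), on arrays of 3909 to 4261 against 1727 to 1882 units. SUM149PT was lower than SUM159PT, at -0.78 ± 0.13 (limma adjusted p = 2.22e-05). Both differences passed on all 3 probe sets (0.89 to 1.21, and -1.19 to -0.78). The HS578T DMSO arrays are those of the comparison that chose EGR1. SUM149PT exceeded HS578T by 0.39 ± 0.13 (limma adjusted p = 0.0148) on the brightest probe set only, since the others measured 0.02 and -0.04 (adjusted p = 0.956 and 0.903). That call was lost without SUM149PT DMSO array 2 (0.34, limma adjusted p = 0.0604) and with the mean of the gene's probe sets (0.12, 0.421). Over the 8 groups the SUM159PT means came first (4204 and 4067 units), then those of SUM149PT with MCT1 shRNA, AZD3965 and DMSO (2654, 2427 and 2368), whose arrays overlapped from neighbour to neighbour. HS578T with DMSO (1808), SUM149PT with scramble (1589) and HS578T with AZD3965 (1144) followed, also overlapping from neighbour to neighbour.

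EGR3, a related factor that EGR1-inducing signals also raise, was dim. HS578T DMSO arrays gave 146, 140.0 and 179 units and AZD3965 arrays 112, 140.3 and 124, which overlapped (-0.27 ± 0.20). In SUM149PT and SUM159PT the change with AZD3965 was -0.14 ± 0.20 and -0.36 ± 0.20, and neither passed (limma adjusted p = 0.767 and 0.728). With scramble shRNA the arrays gave 66.3, 84.4 and 52.2 units and with MCT1 shRNA 187, 152 and 114. The groups did not overlap, and the change was 0.99 ± 0.20, or 0.85 without scramble array 3. That scramble group was the lowest of the 8 (67.6 ± 16.1 units) and the only one whose arrays did not overlap the next group above (119 ± 12.9 units, SUM159PT with AZD3965). The 7 other group means lay between 119 and 158 units. Between lines under DMSO no EGR3 difference passed, with log2 values of -0.10 to 0.01 (limma adjusted p from 0.677 to 0.956).

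FOS, the AP-1 subunit that depends on a JUN partner to bind DNA, was close to the background. The HS578T DMSO arrays gave 75.2, 59.6 and 23.3 units and the AZD3965 arrays 21.1, 54.2 and 14.5. The groups overlapped, and the log2 change was -0.59 ± 0.35, with values of -0.95 to -0.34 when 1 array was left out and of -0.86 and -0.31 with offsets of 1 and 64. In SUM149PT the change with AZD3965 was -0.06 ± 0.35 and in SUM159PT 0.09 ± 0.35 (limma adjusted p = 0.956 and 0.971), and the intervals of -0.78 to 0.67 and -0.64 to 0.82 were wide. With scramble shRNA the arrays gave 74.2, 76.8 and 95.2 units and with MCT1 shRNA 144, 123 and 162. Each MCT1 shRNA array was above each scramble array, a change of 0.70 ± 0.35, and 0.79 without scramble array 3.

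Under DMSO, FOS was brightest in SUM149PT, with 99.0, 152 and 133 units against 83.7, 30.8 and 19.4 in SUM159PT. No SUM149PT array overlapped the arrays of the other lines. SUM149PT exceeded SUM159PT by 1.37 ± 0.35 (limma adjusted p = 0.00165) and HS578T by 1.14 ± 0.35 (limma adjusted p = 0.00679). The latter call was lost without HS578T DMSO array 3, the lowest of its group (0.78, limma adjusted p = 0.0676). HS578T and SUM159PT did not differ by the test (-0.24 ± 0.35, limma adjusted p = 0.595, interval -0.96 to 0.49). FOSB, another FOS family gene, gave 2.17 to 56.3 units over the 24 arrays on its only probe set. Its groups overlapped in every comparison, and no test was made on it.

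FOSL1, which encodes the FRA1 subunit of AP-1, was bright in every group. The SUM149PT DMSO arrays gave 4301, 4801 and 4516 units, SUM159PT 2321, 2263 and 2495, and HS578T 2371, 2420 and 2345. The SUM149PT arrays lay above all others. SUM149PT exceeded SUM159PT by 0.94 ± 0.10 and HS578T by 0.93 ± 0.10 (limma adjusted p = 2.97e-08 and 2.89e-08). SUM159PT and HS578T measured within -0.01 ± 0.10 of each other (limma adjusted p = 0.931, interval -0.23 to 0.20). FOSL1 values with AZD3965 overlapped those with DMSO in all 3 lines. The change was -0.01 ± 0.10 in HS578T, 0.09 ± 0.10 in SUM149PT and 0.08 ± 0.10 in SUM159PT (limma adjusted p = 0.716 and 0.901 in the SUM lines).

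In the shRNA experiment FOSL1 was lower with MCT1 shRNA. Scramble arrays gave 3364, 3100 and 4770 units and MCT1 shRNA arrays 2134, 2137 and 2098. The groups did not overlap, and scramble array 3 was the highest. The log2 change was -0.79 ± 0.10 with that array and -0.60 without it. The MCT1 shRNA group, at 2123 ± 21.6 units, had the lowest FOSL1 mean of the 8 groups. It did not overlap the next, SUM159PT with DMSO (2360 ± 120.7 units), which belongs to the other experiment.

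FOSL2, which encodes the FRA2 subunit, was followed on 5 probe sets. On the brightest, 225262_at, the HS578T DMSO arrays gave 3644, 3684 and 3472 units, SUM149PT 956, 1154 and 1073, and SUM159PT 1359, 1332 and 1369. HS578T was far above both SUM lines. SUM149PT was lower than HS578T, at -1.75 ± 0.14 (limma adjusted p = 7.35e-11) and SUM159PT at -1.40 ± 0.14 (5.62e-09). All 5 probe sets passed in the same direction in both comparisons (-1.75 to -1.08, and -1.52 to -0.63). SUM149PT was also lower than SUM159PT, at -0.35 ± 0.14 (limma adjusted p = 0.0326), but this call was lost in 5 of the 6 fits that left out 1 array, where adjusted p was 0.0571 to 0.133 (all but the fit without SUM149PT DMSO array 2). Its other probe sets measured -0.65, -0.56, -0.22 and 0.44.

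With AZD3965 the brightest FOSL2 probe set measured 0.05 ± 0.14 in HS578T, 0.07 ± 0.14 in SUM149PT and -0.05 ± 0.14 in SUM159PT (limma adjusted p = 0.856 and 0.962 in the SUM lines). On the dim probe set 205409_at, SUM149PT AZD3965 arrays gave 88.9, 99.9 and 113 units, above the DMSO arrays at 61.9, 48.3 and 48.8. That change of 0.76 ± 0.25 did not pass over all 32771 probe sets tested (limma adjusted p = 0.213), of which 0.0122% passed. In SUM159PT the probe set 218881_s_at was also without overlap, at 0.42 ± 0.32 (limma adjusted p = 0.894). With MCT1 shRNA the FOSL2 probe sets went different ways, at 0.05, 0.31, -0.50, -0.50 and 0.49, and every one overlapped between groups. Without scramble array 3 they measured -0.17, -0.09, -0.12, -0.67 and 0.42 in the same order. No direction is given for FOSL2 in that experiment.

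JUN, the AP-1 subunit that can pair with itself or with FOS proteins, had the same order of lines on all 4 of its probe sets. On 201464_x_at the DMSO arrays gave 6827, 6800 and 7061 units in HS578T, 3911, 3934 and 4096 in SUM159PT and 2441, 2183 and 2290 in SUM149PT. No arrays overlapped between lines. SUM149PT was lower than HS578T, at -1.58 ± 0.08 (limma adjusted p = 1.19e-14), SUM159PT was lower than HS578T, at -0.79 ± 0.08 (5.33e-09) and SUM149PT was lower than SUM159PT, at -0.79 ± 0.08 (5.24e-09). Over the 4 probe sets these differences ran from -2.06 to -1.41, from -1.16 to -0.79 and from -1.16 to -0.48, and all passed. The suffix of 201464_x_at marks a probe set that may also bind related sequences.

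On the brightest probe set JUN with AZD3965 overlapped its controls, with changes of 0.05 ± 0.08 in HS578T, 0.01 ± 0.08 in SUM149PT and -0.05 ± 0.08 in SUM159PT (limma adjusted p = 0.948 and 0.918 in the SUM lines). On 201465_s_at the SUM149PT arrays with AZD3965 lay below those with DMSO, at -0.27 ± 0.15, which did not pass (limma adjusted p = 0.461). On 201464_x_at the arrays with scramble shRNA gave 1601, 1814 and 2034 units and with MCT1 shRNA 2288, 2093 and 2050. The groups did not overlap but nearly touched. The log2 change was 0.24 ± 0.08, or 0.33 without scramble array 3. The other probe sets measured 0.27, 0.47 and 0.34, of which the first 2 overlapped, and 0.39, 0.29 and 0.21 without scramble array 3. With median centring of the arrays the JUN change was 0.13, while the median of all genes was -0.12 on that scale.

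JUNB, a JUN relative that can oppose JUN on some promoters, ran the other way between lines. The DMSO arrays gave 1340, 1064 and 1605 units in SUM149PT, 696, 479 and 536 in SUM159PT and 285, 288 and 389 in HS578T. No arrays overlapped between lines, and SUM149PT was the brightest where it was the dimmest for JUN. SUM149PT exceeded HS578T by 2.00 ± 0.16 (limma adjusted p = 6.05e-11), SUM159PT exceeded HS578T by 0.80 ± 0.16 (1.13e-04) and SUM149PT exceeded SUM159PT by 1.20 ± 0.16 (4.23e-07).

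With MCT1 shRNA the JUNB arrays gave 479.5, 448 and 616 units, all below the scramble arrays at 743, 799 and 854. The change was -0.63 ± 0.16, or -0.58 without scramble array 3. With AZD3965 in SUM149PT the arrays gave 1193, 986 and 923 units. They overlapped the DMSO arrays, and the change of -0.35 ± 0.16 did not pass (limma adjusted p = 0.255, interval -0.68 to -0.03). JUNB measured 0.01 ± 0.16 in SUM159PT (limma adjusted p = 0.997) and 0.04 ± 0.16 in HS578T. Over the 8 groups the JUNB means ran from 1336 units in SUM149PT with DMSO to 320.5 in HS578T with DMSO, and the HS578T groups lay apart from the rest.

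IER3 is a stress and growth factor inducible gene that encodes a regulator of survival and ERK signalling. Of the 8 genes, IER3 alone had AZD3965 arrays above the DMSO arrays in all 3 lines. The share of all genes tested with that pattern in all 3 lines was not counted, and the HS578T comparison was one that chose the family. HS578T DMSO arrays gave 10271, 9772 and 8976 units and AZD3965 arrays 11835, 12236 and 12287. The log2 change was 0.33 ± 0.08 without a test. Arrays were without overlap and higher in 8.42% of all genes tested in that comparison.

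SUM149PT DMSO arrays gave 20427, 21651 and 19038 units and AZD3965 arrays 21903, 25913 and 25891. The change was 0.27 ± 0.08, but it did not pass over all genes (limma adjusted p = 0.163, interval 0.09 to 0.44). It passed without SUM149PT AZD3965 array 1 (0.35, limma adjusted p = 0.0288), a fit that called 648 genes against 4 with all arrays. With quantile normalization the change was 0.04 (limma adjusted p = 0.752), so its size rested on the scaling of the arrays. SUM159PT DMSO arrays gave 4972, 5340 and 5058 units and AZD3965 arrays 5931, 5875 and 6816. Here too the arrays did not overlap, and the change of 0.27 ± 0.08 did not pass (limma adjusted p = 0.728, interval 0.10 to 0.45). Genes without overlap and higher made up 12.6% of those tested in SUM149PT and 6.22% in SUM159PT. The AZD3965 effects on IER3 in both SUM lines differed by -0.01 ± 0.12 (limma adjusted p = 0.998, interval -0.25 to 0.24). Over the alternative processing runs with all arrays kept, this difference ran from -0.20 to -0.004 and passed in none.

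IER3 differed strongly between the lines under DMSO. SUM149PT exceeded SUM159PT by 1.99 ± 0.08 (limma adjusted p = 1.05e-15) and HS578T by 1.07 ± 0.08 (7.25e-11), and SUM159PT was lower than HS578T, at -0.91 ± 0.08 (1.93e-09). With MCT1 shRNA the arrays gave 12144, 12829 and 12873 units and with scramble 12970, 11920 and 15070. The groups overlapped at -0.07 ± 0.08, or 0.02 without scramble array 3.

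**Figure D3:**
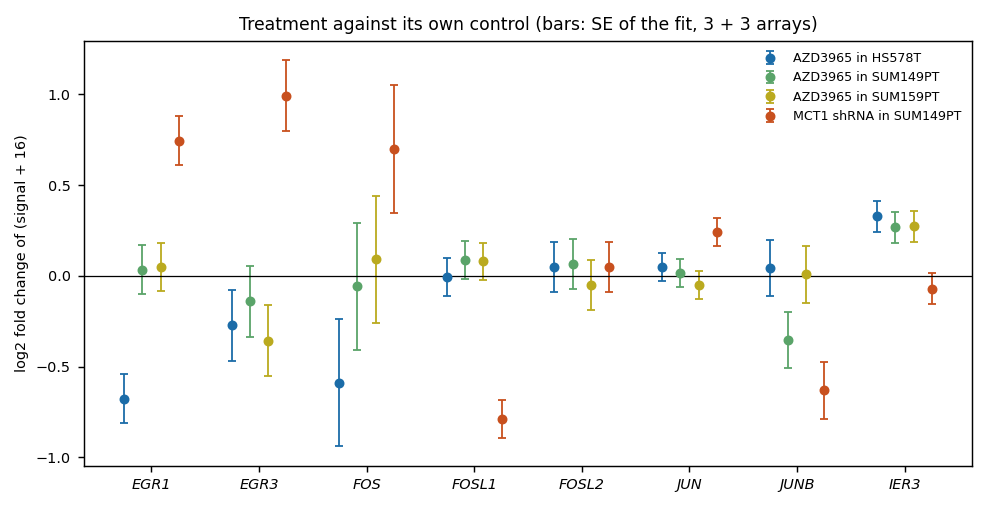
Log2 fold change of (signal + 16) of the 8 genes for each treatment against its own control, with bars of 1 SE from the fit (3 arrays in each group). IER3 lies above 0 for AZD3965 in each line (0.27 to 0.33), while EGR1 lies at -0.68 for AZD3965 in HS578T and at 0.75 for MCT1 shRNA in SUM149PT.

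Counted together, 0 of the 8 genes passed limma's adjusted p threshold of 0.05 with AZD3965 in SUM149PT, where 0.0283% of all genes tested did, and 0 in SUM159PT, where 0% did. At an unadjusted p under 0.05 the genes were JUNB and IER3 in SUM149PT (16.5% of all genes tested) and IER3 in SUM159PT (6.75%). The median log2 change of all 8 genes was 0.02 in SUM149PT and 0.03 in SUM159PT, against 0.04 and 0.00 over all genes. The AZD3965 effect did not pass as different between SUM149PT and SUM159PT for any of the 8 (limma adjusted p = 0.998 for each), with 0% of all genes passing and 4.58% at an unadjusted p under 0.05. In the comparisons that chose the family no call is counted for its members. With MCT1 shRNA, arrays did not overlap for 4 higher genes (14.6% of all genes) and 2 lower genes (15.2%), and nothing is read from these shares.

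Between lines under DMSO, 7 of 8 genes differed for SUM149PT against HS578T (5 higher, 2 lower), where 64.2% of all genes tested did (33.8% higher, 30.4% lower). For SUM159PT against HS578T 5 differed (2 higher, 3 lower), where 58.0% did (30.7% higher, 27.3% lower), and for SUM149PT against SUM159PT 7 (4 higher, 3 lower), where 59.4% did (30.0% higher, 29.3% lower). Of the 17 probe sets of these genes 14 passed in each pair of lines, where 55.4%, 48.2% and 50.4% of all probe sets did. In each pair most of the genes tested differed. The median log2 differences were 0.66, -0.12 and 0.42, against 0.02, 0.03 and -0.02 over all genes. EGR3 was the gene that passed in no pair of lines. Epithelial markers were higher in SUM149PT than in HS578T for 8 of 9 and than in SUM159PT for 9 of 9, while 7 of 7 mesenchymal markers were lower than in HS578T, and 5 were lower and 1 higher than in SUM159PT. The part of that contrast in the immediate early values was not tested.

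**Figure D4:**
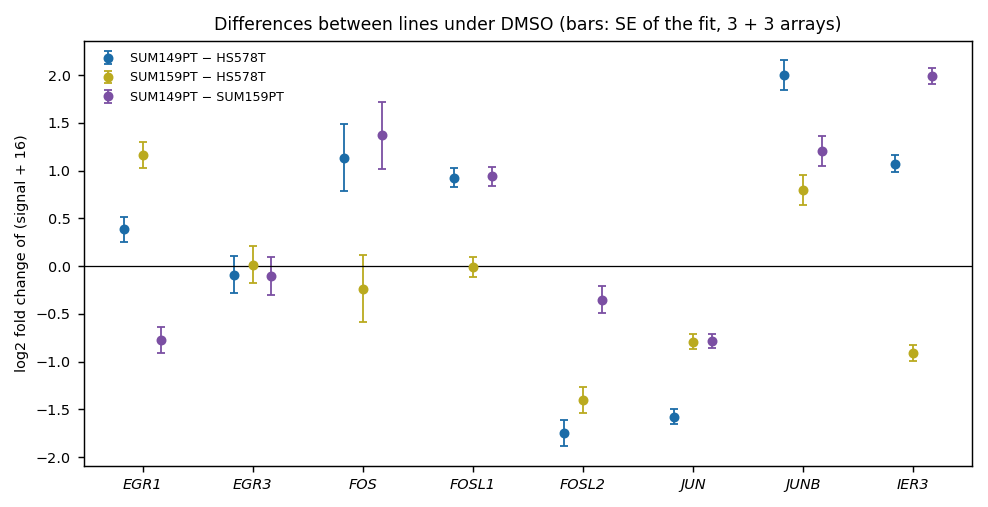
Log2 difference of (signal + 16) of the 8 genes between cell lines under DMSO, with bars of 1 SE from the fit (3 arrays in each group). JUN and FOSL2 lie below 0 in every pair shown and JUNB above 0 (0.80 to 2.00), while EGR3 lies near 0 in all.

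Genes around the family were counted from lists of known immediate early genes, ERK outputs, promoter-binding factors and AP-1 or EGR targets. With AZD3965 in SUM149PT and in SUM159PT none of the listed genes that were tested passed in limma. That covered 25 other immediate early genes, 16 ERK feedback genes, 10 promoter-binding factors, 15 kinases and adaptors of the MAP kinase cascade, 8 AP-1 partners, 15 AP-1 targets and 10 EGR corepressors and targets. The lists held 28, 16, 11, 22, 11, 19 and 10 genes in that order. The untested MAP kinase cascade genes had no probe set with their symbol alone, so the cascade was covered only in part. The list medians lay between -0.07 and 0.07 in both lines. In HS578T the kinase gene MAPK9 alone among the tested list genes was past the threshold, beside 0.304% of all genes. It went from 1198 ± 100.7 to 1581 ± 89.4 units with AZD3965. That comparison chose EGR1, so the value is a description.

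With MCT1 shRNA, values without scramble array 3 are given after each change. Of the 25 other immediate early genes, 5 were past the threshold and higher and 3 lower (5 and 2 without that array). KLF4, a transcription factor, stood at 383 ± 82.2 units with scramble and 2070 ± 111 with MCT1 shRNA (log2 change 2.41, and 2.39 without scramble array 3). DUSP1, a phosphatase of MAP kinases, stood at 1130 ± 119 and 1751 ± 261 units (0.62 and 0.70), and GEM, a small GTPase, at 363 ± 71.8 and 208 ± 12.7 (-0.74 and -0.85). Of the 16 ERK feedback genes 1 was higher and 3 lower (1 and 2 without that array). DUSP6, the ERK phosphatase, stood at 1976 ± 280 and 2696 ± 225 units (0.45 and 0.37), and ETV5 at 2094 ± 147 and 1682 ± 90.9 (-0.31 and -0.35). Among promoter-binding factors ELK3, a partner of serum response factor, was the 1 lower gene of 10, at 3647 ± 304 and 1972 ± 132 units (-0.88 and -0.93). In the MAP kinase cascade 2 were higher and 2 lower (2 and 0 without that array), with RPS6KA2 at 73.4 ± 14.9 and 215 ± 2.06 units (1.38 and 1.52). RPS6KA1 was among the lower genes with all arrays (-0.42) and not without that array (-0.26). Of 15 AP-1 targets 4 were higher and 3 lower (4 and 2 without that array), among them PLAUR, the urokinase receptor gene, at 2283 ± 91.6 and 1530 ± 53.1 units (-0.57 and -0.60). None of 8 AP-1 partners was past the threshold, and of 10 EGR corepressors and targets 1 was, the corepressor gene NAB1, at 1724 ± 36.6 and 2200 ± 206 units (0.34 and 0.33). The list medians were between -0.13 and 0.12. The same comparison chose EGR1, so these are descriptions beside the 14.9% of all genes past the threshold (7.22% higher and 7.64% lower), and nothing is read from the counts.

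Between SUM149PT and SUM159PT, which shared a medium, the list counts stand beside 30.0% of all genes higher and 29.3% lower. In this pair 4 of 16 ERK feedback genes were higher in SUM149PT and 9 lower, with a median log2 difference of -0.63. DUSP5, a nuclear ERK phosphatase, measured -3.14 ± 0.11 and ETV1, an ETS factor, -4.07 ± 0.16 (limma adjusted p = 4.13e-17 and 4.10e-16). Of 15 AP-1 targets 8 were higher in SUM149PT and 3 lower, with a median of 1.28. The urokinase gene PLAU measured 3.77 ± 0.10, its receptor PLAUR 1.90 ± 0.06 and the protease MMP9 3.55 ± 0.15 (limma adjusted p from 1.87e-19 to 7.42e-16). Of 10 EGR corepressors and targets 4 were higher and 6 lower, among them the growth factor gene PDGFA at -3.90 ± 0.10 and GADD45B at -2.47 ± 0.09 (limma adjusted p = 8.35e-20 and 2.03e-17). In the MAP kinase cascade 6 of 15 were higher and 2 lower, and the receptor gene EGFR measured 1.80 ± 0.09 (limma adjusted p = 4.33e-14). The other immediate early genes split 10 higher and 9 lower of 25, with DUSP1 at -2.54 ± 0.09 and NFIL3 at 1.99 ± 0.08 (limma adjusted p = 3.61e-17 and 1.75e-16). Promoter-binding factors split 3 higher and 3 lower of 10, and AP-1 partners 3 and 2 of 8, with MAFF at 1.41 ± 0.07 (limma adjusted p = 1.31e-14).

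Against HS578T, the counts of higher and lower list genes stand beside 33.8% and 30.4% of all genes in SUM149PT and 30.7% and 27.3% in SUM159PT. Other immediate early genes split 11 and 11 of 25 in SUM149PT and 9 and 11 in SUM159PT. CCN2, a matricellular gene, was lower in SUM149PT, at -5.33 ± 0.13 (limma adjusted p = 1.85e-20), and MYC was higher in SUM159PT by 1.76 ± 0.08 (3.10e-15). ERK feedback genes split 6 and 8 of 16 in SUM149PT and 9 and 4 in SUM159PT. DUSP4, another nuclear ERK phosphatase, was higher in both, by 3.95 ± 0.12 and 1.65 ± 0.12 (limma adjusted p = 6.91e-19 and 1.47e-11). AP-1 targets split 8 and 3 of 15 in SUM149PT and 5 and 8 in SUM159PT, and the EGFR ligand gene EREG was higher in both (limma adjusted p = 3.32e-22 and 1.43e-20). EREG was at background in HS578T (8.49 ± 4.55 units, against 5548 ± 461 and 2279 ± 121), so the size of its log2 difference is set by the offset and is not given. EGR corepressors and targets split 3 and 6 of 10 and 6 and 2, with NAB1 higher in both, by 2.19 ± 0.09 and 1.33 ± 0.09 (limma adjusted p = 1.41e-16 and 2.45e-12). MAP kinase genes split 6 and 6 of 15 and 6 and 7, promoter-binding factors 5 and 2 of 10 in each, and AP-1 partners 2 and 3 of 8 and 2 and 2.

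The genes whose pattern over the 8 group means was most like each gene were found by Pearson's r over 14141 genes, as a description of 8 points that share arrays and cell lines. For EGR1 they were PDCD11 (0.983), SRRT (0.980) and ALG1 (0.979). EGR3 was most like CFAP99 (0.996), TNFRSF4 (0.961) and RIMKLA (0.950), and FOS was most like PLEKHM1 (0.992), ATG2A (0.984) and LINC01093 (0.978). FOSL1 was most like MAP3K11 (0.978), BANF1 (0.970) and VDAC3 (0.968), and FOSL2 most like KLHL13 (0.997), NAP1L3 (0.996) and PPP1R15A (0.996). JUN was most like VCL, the vinculin gene (0.998), ZNF70 (0.997) and DAB2 (0.997). JUNB was most like NUDCD2 (0.994), BPNT1 (0.986) and MSH6 (0.985). For IER3 the nearest were STMP1 (0.993), B3GALT6 (0.992) and LIF (0.978). No gene of the family was among the 3 nearest of another.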

How the data were processed

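Per the labels' protocols, biotin-labelled cRNA was hybridised to 24 arrays. The values used are the deposited intensity of each probe set on a linear scale, made with MAS5 according to the submitters' processing notes (version not given in the sources used here). A mean trimmed by 2% at both ends equalled 500.1 on all arrays, which shows scaling before deposition, and no other normalization was added.

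Of 54675 probe sets, 41097 had 1 symbol in the annotation used, 1801 several and 11777 none. For each of 19775 genes the probe set of highest mean was kept, and the 14141 with a mean log2(signal + 16) at or above the 40th percentile of probe sets (5.58) were tested. A second fit took each of 32771 probe sets. Group means of all 24 arrays were fitted with limma 3.58.1 in R 4.3.3 (eBayes with a mean-variance trend, 16 residual and 6.52 prior degrees of freedom), two-sided, with Benjamini-Hochberg adjustment over all genes or probe sets and a threshold of 0.05. Intervals are 95% and unadjusted. Named genes were all members, up to 3 listed genes of smallest p per list and comparison (a selection of them is printed), and the 3 genes most like each member. The members and lists were chosen with earlier results of these data known. In the shRNA and HS578T inhibitor comparisons, which chose the genes, no p-value is given, and list genes past the limma threshold are counted as descriptions only. The scripts were tested on simulated data. As alternatives, arrays were quantile normalized or centred on the median, the offset and filter were changed, and probe sets were averaged, beside fits with a replicate block, with only the arrays compared and without each array in turn. Promoter sequences are from RefSeq, GRCh38.p14.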

Additional observations from a re-analysis of the deposited data

Results flagged for a closer look

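On the EGR1 probe set 201693_s_at the AZD3965 arrays moved to opposite sides of their controls in a pair of lines. In HS578T all 3 treated arrays (193, 161 and 254 units) lay below the DMSO mean of 422 units, a log2 change of -1.02. In SUM149PT all 3 treated arrays (496, 414 and 506 units) lay above the DMSO mean of 411 units, a change of 0.19, although 1 of them was below the highest DMSO array. The difference between the lines was not tested, because the HS578T comparison chose the gene. It was the only such opposition among the 17 member probe sets above the filter, and the other EGR1 probe sets did not show it. How often such an opposition occurs among all probe sets was not counted, so nothing is read from that count.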

How the results depend on the processing

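No called direction of a member reversed under any alternative run. The limits are few arrays per group, dim signals for FOS, EGR3 and FOSB, and control arrays shared between line and treatment comparisons. Counts of genes called moved by over 1.5 times as follows. With AZD3965 in SUM159PT the count was 0 with all arrays, 1 with quantile normalization, 1 with median centring, 9 with an offset of 1 and 2 with the 60th percentile filter. With AZD3965 in HS578T it was 43, but 25 with an offset of 64, 26 with the mean of probe sets, 28 with only the arrays compared and 8 with the replicate block. With AZD3965 in SUM149PT it was 4, but 2 with the mean of probe sets and 0 with only the arrays compared. For MCT1 shRNA it was 2101, and 864 with only the arrays compared.

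Same-numbered arrays deviated from their group means with correlations of -0.131 to 0.230, not all over 0.1 in any comparison. They were all positive for AZD3965 in SUM149PT (0.0459 to 0.0834) and for SUM149PT against SUM159PT (0.0703 to 0.230). The main fit used no pairing. Whether same-numbered arrays were cultured or processed together cannot be told from these values or the labels. In the fit with the replicate block the count for MCT1 shRNA was 1691, and line counts were 9062, 8204 and 8391 against 9079, 8207 and 8397.

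Leaving out 1 array at a time gave 15 to 32 genes for AZD3965 in HS578T, 2 to 648 in SUM149PT and 0 to 4 in SUM159PT, 1547 to 2303 for MCT1 shRNA, and 0 to 2 for the difference between the SUM lines. Line counts were 8572 to 8712, 7703 to 7829 and 7853 to 7955, in the order SUM149PT against HS578T, SUM159PT against HS578T and SUM149PT against SUM159PT. The HS578T count was 24 without DMSO array 1, 23 without DMSO array 3, 15 without AZD3965 array 1 and 27 without AZD3965 array 3. The SUM149PT count was 2 without DMSO array 1, 17 without DMSO array 2, 648 without AZD3965 array 1 and 7 without AZD3965 array 3. The SUM159PT count was 2 without DMSO array 1, 4 without DMSO array 3, 3 without AZD3965 array 1 and 2 without AZD3965 array 2. The cause was not tested.

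With median centring the median log2 change of all genes was 0.14 with AZD3965 in HS578T (-0.02 on the deposited scale), -0.12 with MCT1 shRNA (-0.00344), and 0.12 in both line comparisons with HS578T (0.02 and 0.03). The called genes then split 33 higher and 1 lower in HS578T, against 30 and 13, and 398 and 1328 with MCT1 shRNA, against 1021 and 1080. The IER3 change in HS578T was then 0.49 against 0.33, on a scale on which all genes had that median of 0.14. FOSL2 in SUM149PT against SUM159PT then did not pass (-0.34, limma adjusted p = 0.0646). With the mean of probe sets the EGR1 change was -0.92 with AZD3965 in HS578T and 0.57 with MCT1 shRNA. Over the alternative processing runs with all arrays kept, it ran from -0.92 to -0.52 in HS578T and from 0.57 to 0.76 with MCT1 shRNA. With an offset of 64 the EGR3 change with MCT1 shRNA was 0.70. FOS had no value with the 60th percentile filter.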
